A study of Mus musculus with 36 samples.

Results

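Cadherins, protocadherins, integrins, laminins, contactins, neural cell adhesion molecules and catenins were examined in chromatin immunoprecipitation data (ChIP-seq) from mouse aortic smooth muscle cells. Members were all genes whose symbol begins with Cdh, Pcdh, Itga, Itgb, Lama, Lamb, Lamc, Ncam, Cntn or Ctnn. They held 101 of the 13958 listed peaks, annotated to 60 genes, out of 164 such genes in the RefSeq gene table. In H3K9ac, an acetylation found at active promoters and enhancers, they had 61 of 8115 peaks, in 43 genes. In H3K9me3, a methylation found in heterochromatin, they had 40 of 5374 peaks, in 22 genes. In H3K4me3, found at active promoters, they had 0 of 469 peaks. The choice of prefixes also takes in genes that share only the prefix with these families, such as the contactin-associated Cntnap genes. These were kept as a group of their own.

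The cells were primary cultures from wild-type C57BL/6N mice or from mice lacking cystathionine gamma-lyase (CSE, gene Cth, an enzyme that makes hydrogen sulfide) in the whole body. Cells of both genotypes had been given 1 µM angiotensin II, a pressor peptide, for 24 hours, so no group without angiotensin II enters these comparisons. For each mark, 3 immunoprecipitated and 3 input libraries per genotype make up the 36 samples, and the labels do not say whether those of a group come from separate animals or cultures. The question asked of each mark was which regions differ between knockout and wild-type cells. The authors' deposited tables give, for each selected peak, 1 level per genotype (log2 of the mean normalised signal), the log2 fold change of knockout over wild type, a p-value and a false discovery rate (FDR). All levels, fold changes, p-values and FDRs below are the authors', and "higher" and "lower" always mean higher or lower in the knockout. No value per sample is given, so the spread between replicates and the depth of each library are unknown. Only peaks that the authors selected, at a p of 0.05 by the title of the tables, are listed, and no peak with a p below 0.000101 (H3K9ac) or 0.00011 (H3K9me3) is among them. An adhesion gene without a listed peak may therefore have had no difference or one stronger than those listed. Cth itself had 0 listed peaks in each of the 3 tables, so the tables offer no check of the deletion.

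Classical cadherins bind the same cadherin on the neighbouring cell and are tied to actin through beta-, alpha- and p120-catenin. Integrins are pairs of an alpha and a beta chain that bind extracellular matrix, and laminins, each made of an alpha, a beta and a gamma chain, are major ligands in the basement membrane around every smooth muscle cell. Contactins and Ncam proteins are immunoglobulin-type adhesion molecules best known from neurons. In arteries, loss of contact with matrix and a change of cadherins accompany the shift of smooth muscle cells from a contractile to a migratory state.

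Promoter sequences are shown for 6 members whose listed peak covers a start site in the RefSeq promoter table (GRCm38.p6). A mark and a defined start coincide there. The 6 are not all members with a listed peak at a start. Cdh3, Cdh11, Itga7, Ncam1 and Itgal have no entry in that table. The starts of Pcdh1 and of the clustered protocadherins were left out of this selection. The motif results below therefore hold for the sequences shown only. For Cdh7, which has a second start under the same peak, the first is shown. Each is the 250 bases before the start, read 5′ to 3′ on the strand of the gene. Capitals mark every match to a GC box (GGGCGG) or a CCAAT box (CCAAT), on either strand. H3K9ac was lower at the first 4 and higher at Pcdh19, and H3K9me3 was higher at Cdh7.
Itga11 (chr9:62677605-62677854, + strand): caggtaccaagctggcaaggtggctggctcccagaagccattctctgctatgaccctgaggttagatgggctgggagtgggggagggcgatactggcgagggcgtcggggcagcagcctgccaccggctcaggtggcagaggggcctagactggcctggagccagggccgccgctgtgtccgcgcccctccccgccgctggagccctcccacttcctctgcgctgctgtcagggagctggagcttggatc
Itga1 (chr13:115101965-115102214, - strand): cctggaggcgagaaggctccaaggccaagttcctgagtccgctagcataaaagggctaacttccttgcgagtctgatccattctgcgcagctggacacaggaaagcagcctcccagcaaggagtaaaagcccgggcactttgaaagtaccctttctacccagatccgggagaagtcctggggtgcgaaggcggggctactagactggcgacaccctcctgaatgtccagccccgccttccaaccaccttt
Cdh18 (chr15:23036213-23036462, + strand): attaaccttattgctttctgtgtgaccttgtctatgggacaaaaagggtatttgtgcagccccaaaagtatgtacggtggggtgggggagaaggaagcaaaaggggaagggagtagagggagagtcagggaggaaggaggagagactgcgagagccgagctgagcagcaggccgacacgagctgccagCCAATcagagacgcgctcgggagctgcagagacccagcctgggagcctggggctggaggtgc
Pcdh18 (chr3:49757317-49757566, - strand): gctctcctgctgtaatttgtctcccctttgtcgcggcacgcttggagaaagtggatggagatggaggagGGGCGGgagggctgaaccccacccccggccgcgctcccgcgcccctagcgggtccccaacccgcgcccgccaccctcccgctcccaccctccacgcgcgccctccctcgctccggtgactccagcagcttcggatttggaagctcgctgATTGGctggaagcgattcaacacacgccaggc
Pcdh19 (chrX:133688994-133689243, - strand): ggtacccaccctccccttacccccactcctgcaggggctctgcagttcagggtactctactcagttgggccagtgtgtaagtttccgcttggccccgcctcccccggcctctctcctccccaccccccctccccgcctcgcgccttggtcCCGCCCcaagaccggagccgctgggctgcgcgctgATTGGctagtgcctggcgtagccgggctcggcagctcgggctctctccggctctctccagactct
Cdh7 (chr1:109982650-109982899, + strand): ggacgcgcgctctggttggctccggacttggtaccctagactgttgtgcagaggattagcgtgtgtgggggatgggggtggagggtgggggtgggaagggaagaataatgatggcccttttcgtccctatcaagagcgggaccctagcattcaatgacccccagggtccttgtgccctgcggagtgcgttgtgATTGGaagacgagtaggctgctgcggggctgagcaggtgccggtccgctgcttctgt

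Motifs searched in these windows on both strands were the GC box, the TATA box (TATAAA), the MCAT box (CATTCC), the AP-1 site (TGANTCA), the E-box (CACGTG) and the CArG box. The CCAAT box was added after the sequences had been read. A GC box was present in Pcdh18, 181 to 176 bases before the start, and in Pcdh19, 100 to 95 bases before it. Of all 32851 start sites in the table, 32.7% had a GC box in the same window. CCAAT boxes lay 62 to 58 bases before the start in Cdh18, 32 to 28 in Pcdh18, 65 to 61 in Pcdh19 and 57 to 53 in Cdh7, and 33.8% of all start sites had one. The window before the second Cdh7 start had no CCAAT box and 17 CpG dinucleotides. Itga11 and Itga1 held none of the 7 motifs. The TATA box, the MCAT box, the AP-1 site, the E-box and the CArG box were found in none of the 6, against 12.4%, 12.6%, 6.75%, 6.02% and 1.47% of all start sites. The number of CpG dinucleotides was 23 in Pcdh18, 16 in Pcdh19, 13 in Cdh7, 12 in Itga11, 10 in Itga1 and 8 in Cdh18, against a median of 6 over all start sites.

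H3K9ac was higher in the knockout at most listed intron peaks annotated to adhesion genes, where most of the table was lower. At most promoter peaks annotated to them it was lower, as in the table as a whole. Of the 61 member peaks 35 were lower and 26 higher. The share lower was 57.4% (exact binomial 95% interval 44.1 to 70.0%, treating peaks as independent, which neighbouring peaks are not), against 77.2% of all listed H3K9ac peaks. At promoters 25 of 35 member peaks were lower, or 71.4% (53.7 to 85.4%), against 79.3% of all listed promoter peaks. Inside introns 11 of 13 member peaks were higher, or 84.6%, against 25.5% of all listed intron peaks. Those 11 intron peaks belonged to 8 genes, so they are not 11 separate observations. Only the neighbouring genes Cdh1 (FDR 0.0128) and Cdh3 (FDR 0.0488) had one of them at an FDR under 0.05. Intron peaks inside members but annotated to other genes went both ways. They were higher in Cdh2, Itgb3 and the protocadherin cluster, and lower in Ctnna3, Ctnnbip1 and Itga11. Counted by gene, with the peak of smallest p for each, 25 of 43 genes were lower (58.1%, against 75.8% of all 5911 gene symbols). The median change of a lower member peak was 2.08-fold and of a higher one 2.87-fold, next to 2.19-fold and 2.50-fold over all listed peaks.

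An FDR under 0.05 was reached by 14 member peaks (23.0%, against 16.6% of all listed H3K9ac peaks). Of these 9 were higher and 5 lower, in 12 genes. How all listed peaks at this FDR split by direction is not given here. The split of the 14 can therefore not be called particular to adhesion genes. The higher ones lay at Cdh3, Cdh1, Pcdh19, Pcdh1, Pcdhgb1, Cntn5 and Itgb5, and the lower ones at Cdh11, Cdh18, Cdh23, Cdh26 and Itgal. Higher peaks started from a lower wild-type level: the median log2 level in wild type was 4.25 for the 26 higher peaks and 6.07 for the 35 lower ones. The same gap, 4.19 against 5.90, was present over all listed peaks, and its part in the split between promoters and introns was not tested.

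**Figure D1:**
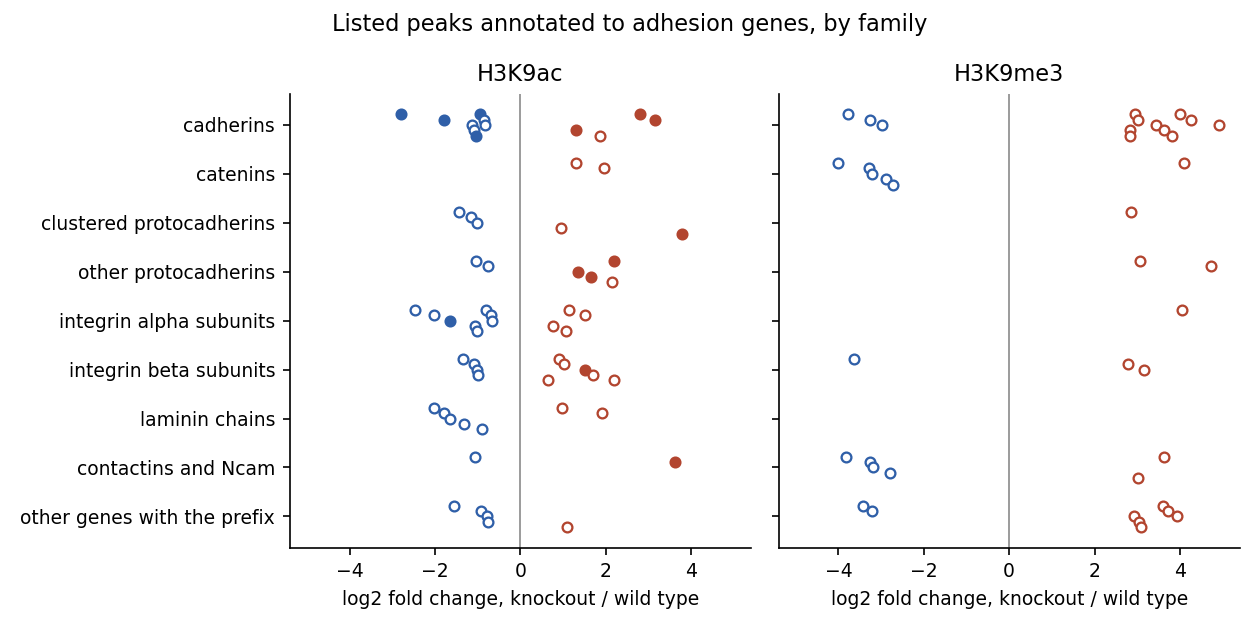
Log2 fold change (knockout over wild type) of every listed peak annotated to an adhesion gene, by family, for H3K9ac on the left and H3K9me3 on the right. Red points are higher and blue points lower in the knockout, and filled points have an FDR under 0.05, which 14 H3K9ac peaks and 0 H3K9me3 peaks reached.

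Among the cadherins 12 H3K9ac peaks in 7 genes were listed, 4 higher and 8 lower, where 77.2% of all listed H3K9ac peaks were lower. The highest cadherin level in wild type was at the start of Cdh11, which encodes a cadherin of mesenchymal cells. This peak of 4195 bp (chr8:102781533-102785727) had a log2 level of 10.5 in wild type and 8.72 in the knockout, a 3.43-fold drop (log2 fold change -1.78, the authors' p = 0.000128, FDR 0.0075). A second H3K9ac peak beside it, annotated to the predicted gene Gm45258 but inside Cdh11, was lower as well, at 6.73 in wild type and 5.8 in the knockout. At the start of Cdh3, the gene of P-cadherin, the direction was opposite. The level there (chr8:106510695-106513327) was 6.03 in wild type and 9.18 in the knockout, 8.82-fold higher (the authors' p = 0.000215, FDR 0.011). A Cdh3 intron peak 9.9 kb from the gene start was 6.92-fold higher, from 1.82 to 4.6 (FDR 0.0488).

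Cdh1, the gene of E-cadherin, lies next to Cdh3 and had 2 listed intron peaks, both higher. The one at chr8:106619095-106620456 had a level of 5.78 in wild type and 7.09 in the knockout (log2 fold change 1.31, FDR 0.0128). The other, chr8:106625741-106626078, had 2.84 and 4.7 (log2 fold change 1.87, FDR 0.113). Between both genes the only other listed peak, annotated to Gm10073, was also higher (log2 fold change 1.15). The 5 listed peaks from the Cdh3 start to 115.1 kb beyond it were thus all higher. The nearest listed peaks on either side, annotated to Zfp90 (-0.85) and Tango6 (-0.64), were lower, and the next one beyond Zfp90, annotated to Smpd3, was higher again (1.29). These neighbours were chosen after their values were seen. Of all listed H3K9ac peaks on chromosome 8, 15.0% were higher. Among the other epithelial markers of the list (Epcam, Krt8, Krt18, Krt19, Cldn4 and Cldn7) only Krt19 had a listed H3K9ac peak, at 5.42 in wild type and 6.19 in the knockout. How far cells of another type share in the Cdh3 and Cdh1 values was not tested.

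**Figure D2:**
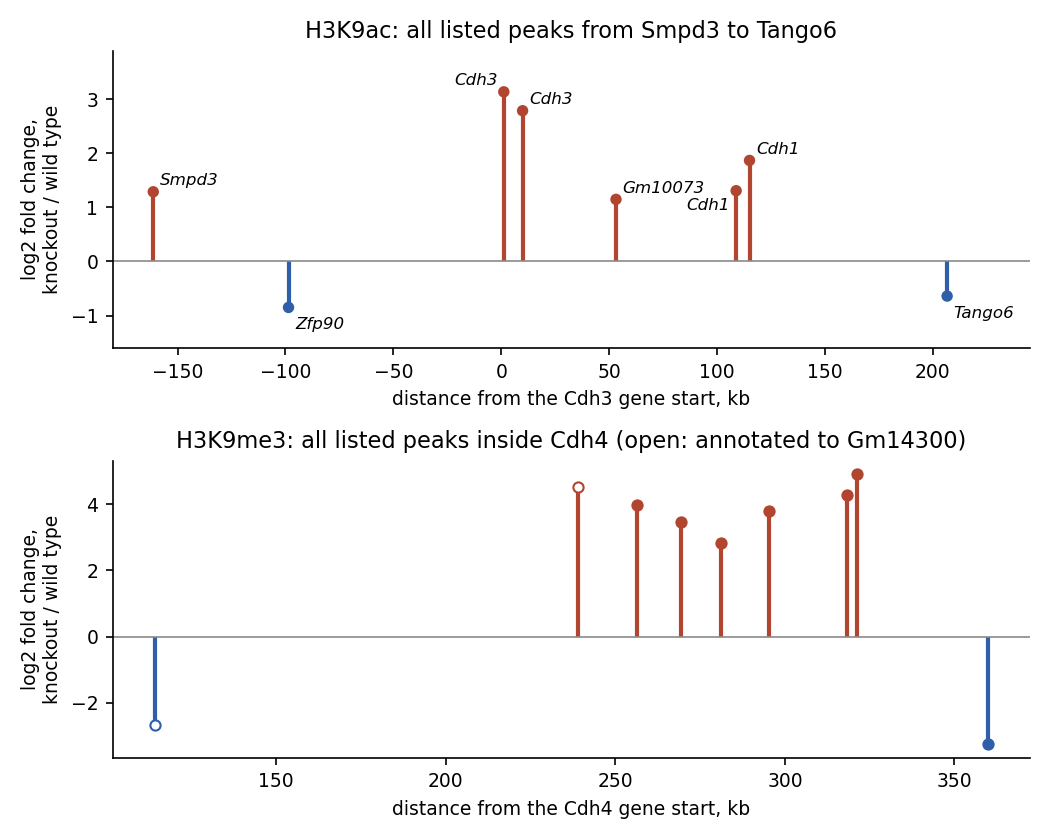
Log2 fold change (knockout over wild type) of listed peaks against distance in kb. In the upper panel the H3K9ac peaks from Cdh3 to Cdh1 are all higher (1.15 to 3.14), with the lower peaks of Zfp90 and Tango6 on either side and the higher one of Smpd3 farther out. In the lower panel the H3K9me3 peaks inside Cdh4 are shown, of which 7 neighbouring ones are higher (2.83 to 4.91).

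The other cadherins with listed H3K9ac were lower throughout. Cdh23, a giant cadherin of the hair-cell tip link, had 3 lower peaks annotated to it. The largest difference was at a peak called an exon, 5.07 in wild type and 2.28 in the knockout (log2 fold change -2.79, FDR 0.0202). That peak lies outside the RefSeq body of Cdh23, 396.1 kb from the gene start, so the exon may not be one of Cdh23. The other Cdh23 peaks changed by -1.08 and -1.13 and lie at starts of short transcripts more than 300 kb inside the gene. Cdh18, a neuronal type II cadherin, was lower at the start shown above, 7.78 against 6.73 (log2 fold change -1.05, FDR 0.0285). That start is 487.6 kb from the outermost RefSeq start of the gene. Cdh26 was lower at an intron peak, 8.04 against 7.09 (FDR 0.0222), and at a peak downstream of the gene. Cdh16, a kidney cadherin, had 7.78 in wild type and 6.94 in the knockout (the authors' p = 0.0084).

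The genes that make N-cadherin and T-cadherin, Cdh2 and Cdh13, which vascular smooth muscle is known to use, had 0 H3K9ac peaks annotated to them. Inside the body of Cdh2, however, a small intron peak annotated to the predicted gene Gm15485 was higher, with a level of 1.37 in wild type and 4.03 in the knockout (the authors' p = 0.0086). It was found by position after the tables had been examined. Of the catenins, Ctnna1 (alpha-catenin) and Ctnnd1 (p120-catenin) each had 1 intron peak, both higher. Ctnna1 went from 3.19 to 5.14 (log2 fold change 1.95, the authors' p = 0.0059) and Ctnnd1 from 4.37 to 5.68 (1.31, p = 0.00412). Neither passed an FDR of 0.05, and Ctnnb1 (beta-catenin) had no listed peak.

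Protocadherins showed both directions at their starts. Pcdh19, a gene of the X chromosome, was higher at its start, from 6.43 in wild type to 8.08 in the knockout (chrX:133687011-133689004, 3.16-fold, FDR 0.0109). A peak 2.1 kb before the start was 4.59-fold higher, from 3.19 to 5.4 (FDR 0.0122). On the X chromosome 6.62% of all listed H3K9ac peaks were higher, so these 2 peaks were among 9 of 136. Pcdh18 was lower at its start, 9.26 against 8.51 (log2 fold change -0.75, the authors' p = 0.0363). Pcdh1 was lower at its start, 7.67 against 6.62 (-1.05, the authors' p = 0.0186), whereas its 2 peaks in the intergenic stretch beyond the gene were higher. The one of smaller p went from 5.05 to 6.4 (log2 fold change 1.35, FDR 0.0153) and the other from 2.6 to 4.74 (2.14).

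In the clustered protocadherins, whose alternative first exons give neurons their individual surface codes, 5 of 57 genes had a listed H3K9ac peak, each within 1 kb of its own start. Of all protein-coding genes 18.1% had a listed H3K9ac peak. Pcdhgb1 was 13.7-fold higher, from 2.63 in wild type to 6.41 in the knockout (FDR 0.0446). Pcdhgc4 was 1.92-fold higher. Pcdhgb7 (2.69-fold), Pcdhb16 (2.23-fold) and Pcdhgc5 (2.03-fold) were lower, Pcdhgc5 from the highest level of the 5, 8.82. Neighbouring exons of 1 gene cluster thus differed in opposite directions. The cluster lies on chromosome 18, as do Pcdh1, Ctnna1 and Cdh2, and on that chromosome 63.2% of all listed H3K9ac peaks were higher. First exons of this cluster are similar in sequence, so single values may depend on how reads were shared between them, which the labels and file headers do not say.

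**Figure D3:**
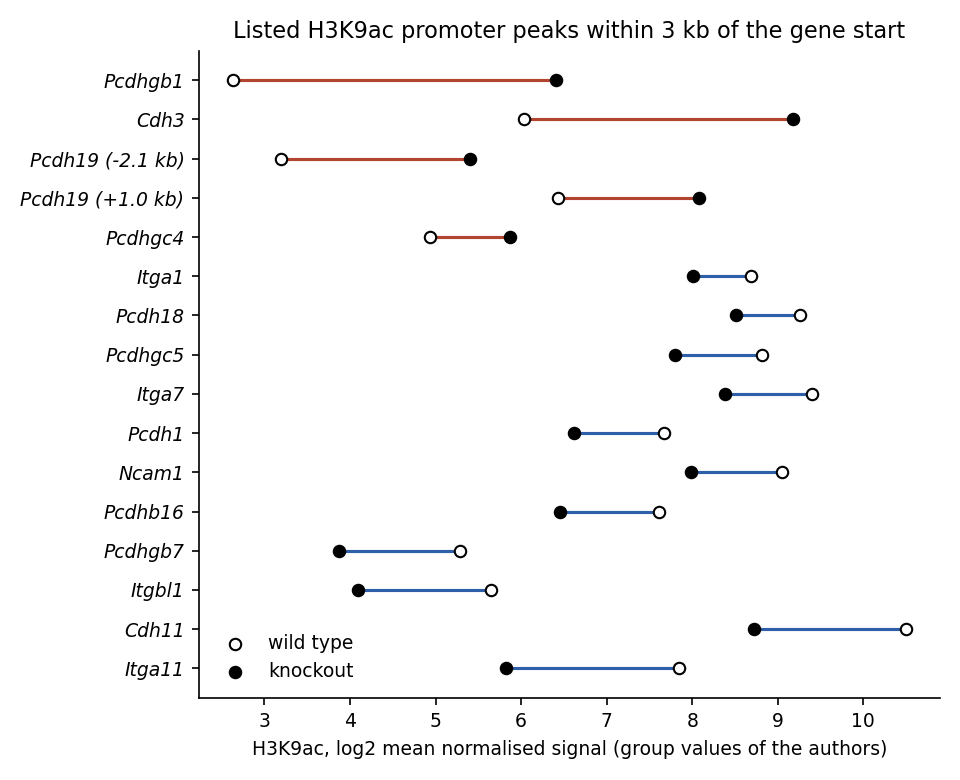
H3K9ac level (log2 mean normalised signal, 1 value per genotype) at the 16 promoter peaks that lie within 3 kb of the RefSeq gene start, wild type as open and knockout as filled circles. The 11 peaks joined by blue lines are lower in the knockout and include 6 with a wild-type level above 8.5, whereas the 5 joined by red lines are higher and all started below 6.5.

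Integrin alpha chains were lower at 8 of 12 H3K9ac peaks, where 77.2% of all listed H3K9ac peaks were lower. At promoters 8 of 10 were lower, near the 79.3% of all listed promoter peaks. A listed peak was present for 9 of 18 genes, against 18.1% of all protein-coding genes, without holding gene length equal. At the starts of the collagen receptors, Itga11 had a level of 7.84 in wild type and 5.82 in the knockout (chr9:62677514-62678736, 4.06-fold lower, the authors' p = 0.0133), and Itga1 had 8.69 and 8.01 (1.60-fold lower, p = 0.0225). Itga7, a laminin receptor typical of muscle, was lower across a start-site peak of 3523 bp, 9.4 against 8.38 (chr10:128933178-128936700, the authors' p = 0.00311). None of these 3 reached an FDR of 0.05. Itga5, the fibronectin receptor chain, had 2 lower promoter peaks (-0.81 and -0.67), 8.4 and 6.8 kb inside the gene. Itga3, another laminin receptor, was lower at a small peak inside the gene, 3.84 against 1.36. Itgal, an integrin of leukocytes, was lower at a pair of adjacent peaks, one from 5.61 to 3.95 (FDR 0.0156) and the other from 5.6 to 4.54.

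The alpha chains with higher H3K9ac were Itgav, the vitronectin receptor chain, Itga2b, the platelet chain, and Itga6, a laminin receptor. Itgav went from 3.19 to 4.71 (the authors' p = 0.031) at a peak of 269 bp in the gene, and Itga2b from 6.29 to 7.05 (p = 0.0128). Both Itga6 peaks were in an intron. Further peaks inside integrin alpha genes had been annotated to other genes. Inside Itga11, a peak annotated to Gm7653 was lower (the authors' p = 0.000121, FDR 0.0072). It had a level of 4.25 in wild type and the lowest level that occurs for the knockout, -0.19, so that its fold depends on that lowest value. A second peak there had a log2 fold change of -0.89. Inside Itga5, 2 more peaks had log2 fold changes of -1.35 and -1.48, and inside Itgae a peak near Haspin had one of 1.36. These were looked up after their values were seen.

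Integrin beta chains had 10 H3K9ac peaks in 5 of 9 genes, 6 higher and 4 lower. Over all listed H3K9ac peaks 77.2% were lower, and 18.1% of all protein-coding genes had a listed peak. Of all listed H3K9ac peaks, 47.5% were higher on chromosome 11 (Itgb3, Itgb4) and 41.0% on chromosome 16 (Itgb5). The shares were 28.7% on chromosome 2 (Itgb6) and 13.3% on chromosome 15 (Itgb7). Itgb5, the partner of the alpha-v chain, had 4 peaks along the gene, and they changed in opposite directions. The 2 nearer the gene start, 62.4 and 65.0 kb inside it, were higher, with log2 fold changes of 0.64 and 1.52, the second with an FDR of 0.0234. The 2 farther in, 93.3 and 119.6 kb inside it, were lower, with log2 fold changes of -1.01 and -1.0. Itgb3, another partner of the alpha-v chain, was higher at an intron peak, from 2.79 to 4.48 (the authors' p = 0.0235). Itgb4 and Itgb6 had only higher peaks, outside promoters. Itgb7, a leukocyte chain, was lower at 2 peaks (log2 fold changes -1.34 and -1.08), neither inside the gene. Itgb1, the partner of most alpha chains named here, had no listed peak in the 3 tables.

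Laminin chains had 7 H3K9ac peaks in 5 of 11 genes, 5 lower and 2 higher, and 0 of them at an FDR under 0.05. Over all listed H3K9ac peaks 77.2% were lower, and 18.1% of all protein-coding genes had a listed peak. Lamb2, the beta-2 chain of vascular and synaptic basement membranes, was lower at 2 adjacent peaks, from 5.17 to 3.85 and from 4.46 to 2.44 (the authors' p = 0.033 and 0.0308). Lama5, an alpha chain of vessel walls, was lower at a peak inside the gene, from 5.23 to 3.58 (the authors' p = 0.0241). A further peak inside Lama5, annotated to Mir7005 and so not among the 7, went from 4.7 to 1.78 (the authors' p = 0.000633, FDR 0.0238). Lama2, the alpha chain of muscle, had 1 lower exon peak. Lamc1, the common gamma chain, was lower inside the gene, from 5.75 to 3.95 (the authors' p = 0.00225), and higher at a peak 22.5 kb before it, from 3.44 to 5.35 (p = 0.00433).

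Of the immunoglobulin-type members, Ncam1 was lower at its start, 9.05 in wild type and 7.99 in the knockout (2.08-fold, the authors' p = 0.0154). Cntn5, a contactin of neurons, was higher at an intergenic peak about 5 kb before the gene, from 1.4 to 5.02 (FDR 0.00987). Among genes that share only the prefix, Itgbl1, a secreted integrin-like protein, was lower at its start, from 5.65 to 4.09 (the authors' p = 0.0128). The remaining 4 such genes had 1 peak each, 3 lower (Cdhr3, Cntnap2, Itgb1bp1) and 1 higher (Cntnap5b).

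What the tables call a promoter is not always the start of the gene as RefSeq gives it. Of the 35 member promoter peaks in H3K9ac, 16 lay within 3 kb of the outermost RefSeq start, and 11 of these were lower. The other 19 lay farther away, at starts of shorter transcripts, and 14 of these were lower. The second kind includes all promoter peaks of Itgb5, Itga5, Itgal, Lamb2, Lama5 and Cdh23.

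For H3K9me3, the adhesion genes were split between higher and lower at a share near that of all listed peaks. Of 40 peaks 25 were higher (62.5%, exact 95% interval 45.8 to 77.3%), against 61.0% of all listed H3K9me3 peaks. An FDR under 0.05 was reached by 0 of 40 member peaks and by 0 of all 5374 (background 0%), and every member peak had an FDR of 1. The H3K9me3 values below are therefore not called by the authors' corrected test, although each has a p under 0.05 by the selection. Signal was low: the median level of a member peak, averaged over genotypes, was 2.66 on the log2 scale. In 16 of the 40, 1 genotype was at the lowest level that occurs in the table, -0.45 for wild type (10 peaks) or -0.42 for the knockout (6 peaks). Levels rather than folds are given for this mark, since a fold against that lowest level depends on where it was set. Most peaks, 29 of 40, lay in introns, and 5 were at promoters.

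The cadherin gene Cdh4 (R-cadherin, a classical cadherin of brain and developing muscle) had the most annotated H3K9me3 peaks of any member, 6 higher and 1 lower, all in introns. The 6 higher peaks had wild-type levels between -0.45 and 0.35 and knockout levels between 3.18 and 4.46. The one of smallest p (chr2:179763189-179764162, the authors' p = 0.00141) had -0.45 in wild type and 4.46 in the knockout. A seventh higher peak in the same stretch, at -0.45 and 4.07, is annotated to Gm14300. The 2 lower peaks inside Cdh4 lie on either side of the run, one at 2.83 in wild type and -0.42 in the knockout, the other, also annotated to Gm14300, at 3.98 and 1.32. On chromosome 2, 41.9% of all listed H3K9me3 peaks were higher.

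Cdh7 had the H3K9me3 peak that covers a start site shown above (chr1:109982450-109983417), at 1.99 in wild type and 4.93 in the knockout (the authors' p = 0.0254). A second Cdh7 peak, 27.1 kb before the gene, had -0.45 and 3.18. Pcdh15, the partner of Cdh23 in the tip link, had the smallest p of the members. This intron peak had -0.45 in wild type and 4.27 in the knockout (the authors' p = 0.000353), and a second one had 1.07 and 4.13. Cdh18 had 2 lower peaks, one before the gene at 3.98 and 0.2 (the authors' p = 0.00363) and one in an intron at 3.17 and 0.2.

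Of the 6 H3K9me3 peaks annotated to catenins 5 were lower, in the long genes Ctnna2, Ctnna3 and Ctnnd2. The balance was opposite by position: inside the bodies of these 3 genes 8 peaks were higher and 5 lower, because the peaks there that the table gives to other genes were mostly higher. Ctnnd2 (delta-catenin) had 2 lower intron peaks, at 3.58 in wild type and -0.42 in the knockout (the authors' p = 0.00274) and at 3.41 and 0.2, and a higher one before the gene, at -0.45 and 3.64. Ctnna2 (neuronal alpha-catenin) had 2 lower peaks, the one in an intron at 2.87 and -0.42. Contactins had 4 lower and 2 higher peaks. Cntn6 was lower, at 3.4 and -0.42 (the authors' p = 0.00987), and Cntn4 was lower, at 3.62 and 0.44 (p = 0.0245). Cntn1 had 2 lower peaks and a higher one within a single gene. On chromosome 6, which carries Ctnna2, Cntn3, Cntn4 and Cntn6, 27.6% of all listed H3K9me3 peaks were higher.

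Among integrins, H3K9me3 was higher at Itga9, from -0.45 in wild type to 3.6 in the knockout (the authors' p = 0.00747), and at both listed promoter peaks of Itgb2l, from 1.29 to 4.45 and from 1.24 to 4.03. It was lower in an intron of Itgb3, from 3.22 to -0.42 (the authors' p = 0.0131). No laminin chain had an H3K9me3 peak annotated to it, although a peak annotated to another gene lies inside Lama3. Of the contactin-associated genes, Cntnap5a had 4 peaks, all higher, one of them at its start (0.67 and 3.76, the authors' p = 0.0208). Cntnap3 and Cntnap4 were higher, with -0.45 in wild type and 3.16 and 3.47 in the knockout. On their chromosomes, 13 and 8, 84.4% and 88.6% of all listed H3K9me3 peaks were higher, and 58.3% on chromosome 1 (Cntnap5a, Cntnap5b). Cntnap5b was lower, at 3.0 and -0.42, and Ctnnal1, a catenin-like gene, was lower at a promoter peak, at 3.43 and 0.2.

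Most members with an H3K9me3 peak were long genes. The 163 protein-coding members have a median length of 86.1 kb, and the 22 with an H3K9me3 peak one of 342 kb, against 17.1 kb for all 21900 protein-coding genes. An H3K9me3 peak was listed for 13.5% of the members, against 5.52% of all protein-coding genes. Among genes of 100 kb or more the shares were 23.0% (17 of 74; exact 95% interval 14.0 to 34.2%) against 17.8%, and among shorter genes 5.62% (1.85 to 12.6%) against 3.99%. An H3K9ac peak was listed for 26.4% of members against 18.1% of all. For this mark the order turned with length: 23.0% (14.0 to 34.2%) against 30.4% at 100 kb or more, and 29.2% (20.1 to 39.8%) against 16.5% below. Of the 163 members, 57 are clustered protocadherins, which lie together on chromosome 18. Among them 5 had a listed H3K9ac peak and 1 an H3K9me3 peak. The intervals treat these genes as independent, and their part in the length classes was not tested. For H3K4me3, 0 of 163 members were listed, which allows a share of up to 2.24% (exact 95% upper bound), against 1.83% of all protein-coding genes.

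**Figure D4:**
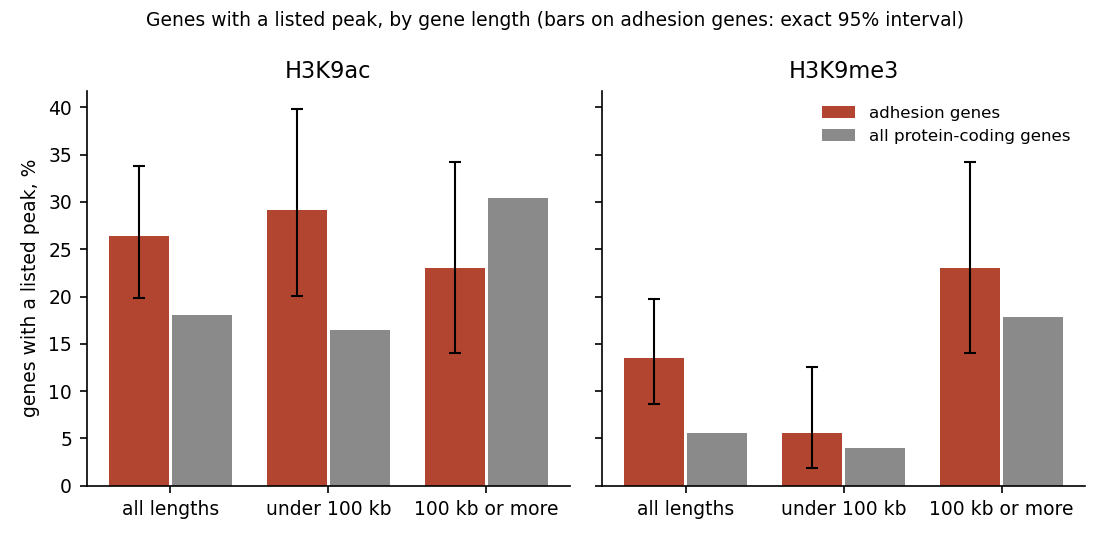
Share of protein-coding genes with a listed H3K9ac (left) or H3K9me3 (right) peak, for adhesion genes in red with exact binomial 95% intervals and for all protein-coding genes in grey. For H3K9me3 the overall gap (13.5% against 5.52%) is smaller within each length class, and for H3K9ac adhesion genes are above at under 100 kb and below at 100 kb or more. The intervals treat genes as independent, although many members lie in a shared gene cluster.

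Annotation to the nearest start leaves many peaks inside these long genes to other genes. By position, 84 H3K9me3 peaks lay inside member gene bodies, 34 of them annotated to members and 50 to other genes. That is 3.02 peaks per Mb of member gene body, against 1.68 per Mb over all protein-coding gene bodies. Of the 84, 53 were higher (63.1%, against 65.0% for all gene bodies). Cntnap2, a gene of 2.24 Mb, held 11 peaks given to other genes, 6 higher and 5 lower. Ctnna3 held 5 and Cdh12 and Cntnap5c 4 each. H3K9ac was sparser per Mb inside member genes, at 2.30 peaks per Mb against 5.52. Members are longer, with a median of 86.1 kb against 17.1 kb for all protein-coding genes. Gene length was not held equal in the densities of either mark, and their differences were not tested. Of the 64 H3K9ac peaks inside member genes 37.5% were higher, against 19.8% in all gene bodies.

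Both marks were listed for 5 genes, 11.6% of the H3K9ac members and 22.7% of the H3K9me3 members. Over all gene symbols, 309 were listed for both, 5.23% of those in H3K9ac and 7.82% of those in H3K9me3. Gene length was not held equal between these shares, and their difference was not tested. At Cdh11 and Cdh26 H3K9ac was lower and H3K9me3 higher, the nearest peaks being 41.2 and 20.1 kb apart. The H3K9me3 peak of Cdh11 lay before the gene, at 0.01 in wild type and 3.03 in the knockout, and that of Cdh26 after it, at 3.49 and 6.33. Of all listed H3K9me3 peaks, 88.6% were higher on chromosome 8 (Cdh11) and 41.9% on chromosome 2 (Cdh26). At Itgb3 and Cntnap5b H3K9ac was higher and H3K9me3 lower, 39.3 and 99.7 kb apart. At Cdh18 both marks were lower, 142 kb apart. The annotated peaks of both marks thus had opposite directions at 4 of the 5 genes, next to 165 of 309 (53.4%) among all gene symbols listed for both marks. By position H3K9me3 was mixed in 2 of the 5, with 1 peak higher and 1 lower inside Cntnap5b and 1 higher and 3 lower inside Cdh18.

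Among genes with more than 1 listed H3K9ac peak, 11 of 14 had them in 1 direction, against 83.1% of all 1388 such gene symbols. Of the 11 genes 5 were higher and 6 lower, and the exceptions were Itgb5, Lamc1 and Pcdh1. In H3K9me3 it was 6 of 9, against 66.5% of 716, the exceptions being Cdh4, Cntn1 and Ctnnd2. Neighbouring peaks can be parts of 1 broader region and are not independent.

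The partners of these receptors, taken from 5 lists of known genes, were lower in H3K9ac at 44 of 54 listed genes (81.5%), near the 75.8% of all gene symbols. Of 35 focal adhesion adaptors and kinases, the proteins that tie integrins to actin, 18 genes were lower and 3 higher by their peak of smallest p. Of their 49 peaks 45 were lower, where 77.2% of all listed H3K9ac peaks were lower. Ptk2, the gene of focal adhesion kinase, had 8.71 in wild type and 7.65 in the knockout at its start (FDR 0.0267), and Vcl (vinculin) had 5.37 and 4.13 in an intron (the authors' p = 0.0104). The 3 higher genes were Lims2, Rsu1 and Src. Of 27 matrix ligands and basement membrane genes 9 were lower and 1 (Spp1) higher. Fn1, the gene of fibronectin, had 11.13 and 10.22 at its start (the authors' p = 0.00917), and Col4a2 had 4.76 and 1.86 (FDR 0.0159). Of 20 genes of the dystroglycan complex and other laminin receptors 6 were lower and 1 (Sdc1) higher, and Sgcd, a sarcoglycan, had 8.18 and 5.6 (the authors' p = 0.0256). In the same list H3K9me3 was higher for 5 genes and lower for 1, with 0 peaks at an FDR under 0.05, where 60.4% of all H3K9me3 gene symbols were higher. Of 31 desmosome and cadherin junction genes 8 were lower and 2 higher in H3K9ac, with Fat1 at 8.21 and 7.09 (FDR 0.0151). Of 24 other immunoglobulin-type adhesion genes 3 were lower and 3 higher. In the H3K4me3 table, which gives no direction, Fat1, Jup, Bcar1, Tln1, Zyx, Cadm4, Col4a5 and Npnt were listed. Of all protein-coding genes 1.83% had a listed H3K4me3 peak, and a difference from that share was not tested.

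Markers of cell types were counted in the same way. Of 12 smooth muscle markers 8 were lower and 1 higher in H3K9ac, where 75.8% of all gene symbols with a listed peak were lower. Acta2 had 7.88 and 7.28 (the authors' p = 0.0269), Lmod1 had 7.58 and 6.35 (FDR 0.0335), and Smtn, the higher one, had 6.46 and 7.42 (FDR 0.0435). Other lists had at most 4 genes with a listed H3K9ac peak: 2 endothelial (1 higher, 1 lower), 2 leukocyte (both higher), 2 epithelial (both higher, Cdh1 among them), 4 fibroblast (2 higher, 2 lower), 2 neural (1 higher, 1 lower, Ncam1 among them) and 1 adipocyte gene (lower). Since unlisted peaks have no value here, the levels of markers that are not listed are unknown, and the part of other cells in the adhesion results was not tested.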

How the data were processed

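ChIP-seq libraries of 12 groups of 3 samples (3 marks, immunoprecipitated or input, 2 genotypes) underlie the deposited tables, which hold 1 row per selected peak. Per the file headers, the authors give log2 levels per genotype and their log2 fold change, with a p-value and an FDR. The H3K4me3 table holds annotated peaks without these. CASAVA 1.4 and mm9 are named in the submitters' processing notes. For the aligner, the peak caller, the scaling of the signal and the test between genotypes, a name is not given in the sources used. Genes of the deposited tables sat where RefSeq GRCm38.p6 places them (H3K9ac 4972 of 4986, H3K9me3 2766 of 2776, H3K4me3 432 of 432), and coordinates are taken to be GRCm38. Depth per sample is unknown, and 0 columns of per-sample values were used.

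Python 3.11.15 with pandas 2.3.3, scipy 1.17.1 and matplotlib 3.10.9 was used to count member peaks by direction, annotation, family and position, beside the same counts over all listed peaks or genes. No test was run beyond the authors' p-values. Since their test is not named, the spread that these p-values measure is unknown, and it may be technical. Intervals are exact binomial and cover counting error only. Promoter sequences are from the RefSeq promoter table (72 member symbols present), and its overlapping entries on opposite strands were reverse complements in all 1911 cases. Motif search and member rule were tested on simulated data.

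The members and lists were chosen with earlier results of these data known. Genes are named with values where they have, per mark and direction, one of the 10 smallest p-values, an H3K9ac FDR under 0.05, a promoter peak, peaks in more than 1 table, or 3 or more peaks in 1 table. Peaks found by position, flanking genes and list examples were picked with their values in view. As alternatives, the counts were repeated with a stricter p, FDR, fold, signal, distance and annotation, 1 call per gene, and without chromosome 18, genes sharing only the prefix, peaks at the lowest level, or single runs of peaks. The values of 1 member gene are not reported here, and its peak stays in the counts.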

Additional observations from a re-analysis of the deposited data

How the results depend on the processing

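The share of lower H3K9ac member peaks (57.4%) stayed within its own exact interval under 10 of 12 alternatives, between 44.4% (p under 0.01) and 64.7% (signal at or above the median of the table). It was 35.7% of 14 peaks at an FDR under 0.05 and 71.4% of 35 with promoter peaks only. The share over all listed peaks at that FDR is not given here. Without the Cdh3 and Cdh1 peaks, an alternative chosen after seeing the data, the member share was 61.4%. The limit of 100 kb and the removal of peaks at the lowest level kept all 61 peaks. Those alternatives could not move the share. The share of higher H3K9me3 member peaks (62.5%) stayed within its interval under 9 of 11 alternatives, between 57.6% (without Cdh4, chosen after seeing the data) and 76.5%. It was 78.6% of 14 peaks at a p under 0.01 and 80.0% of 5 with promoter peaks only. The limit of at least 4-fold kept all 40 peaks and could not move the share. An FDR under 0.05 left no H3K9me3 peak and so gave no share. The count of H3K4me3 member peaks was 0 under both alternatives, which was certain because they only remove peaks from a set of 0. For the 23 genes with several peaks in 1 table, the sign changed in 4 of 35 alternatives. With the median over the peaks of a gene, chosen after seeing the data, Itgb5 in H3K9ac went from 1.52 to -0.18, Lamc1 from -1.8 to 0.055 and Cntn1 in H3K9me3 from 3.62 to -2.79. With promoter peaks only, Pcdh1 in H3K9ac went from 1.35 to -1.05. These changes follow from which peaks stand for the gene. No paired analysis was possible because the deposited tables hold no value per sample, and for the same reason no sample could be left out. Selection by the authors limits all counts to listed peaks. H3K9me3 values are limited by low signal, by an FDR of 1 at all 40 member peaks and by 16 of them having 1 genotype at the lowest level.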
